A study of Mus musculus with 18 samples.

Results

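RNA of 10 genes of de novo lipogenesis, the making of fatty acids from carbohydrate carbon, was measured in 3 fat depots of male mice that carried or lacked caspase-6. The genes were taken by symbol from a list of the pathway's enzymes and regulators (Acly, Acaca, Acacb, Fasn, Scd1, Elovl6, Me1, Srebf1, Mlxipl and Thrsp), and all 10 were among the 25124 genes counted. The depots were inguinal white fat (iWAT), epididymal white fat (eWAT) and brown fat (BAT), with 3 WT and 3 C6KO libraries from each and 18 in all. C6KO mice lacked Casp6 in every cell, not in fat alone, so that a difference between genotypes can begin in another organ. Both genotypes were on a C57BL/6J background, came from crosses of heterozygous parents, and ate a high fat diet (HFD, 60% of its calories from fat) for 12 weeks, beginning at 10 to 14 weeks of age. No chow-fed library was analysed here. The study's methods describe a 10 h fast before tissue was collected at the end of feeding, without naming the C6KO mice, and whether the 3 depots came from the same mice is not given in the sources used here. The comparison of C6KO with WT in each depot asks how loss of caspase-6 goes with the RNA of this pathway in mice fed this diet. On it, the paper reports lower body weight, less fat mass and lighter fat depots in C6KO than in WT mice. Genotype and adiposity thus cannot be told apart in these comparisons.

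In de novo lipogenesis, citrate that leaves the mitochondrion is cut to acetyl-CoA by ATP citrate lyase (Acly), carboxylated to malonyl-CoA by the acetyl-CoA carboxylases (Acaca and Acacb) and built into palmitate by fatty acid synthase (Fasn), with NADPH drawn partly from malic enzyme (Me1). Elovl6 lengthens palmitate to stearate, and stearoyl-CoA desaturase (Scd1) turns stearate into oleate. The transcription factors SREBP-1 (Srebf1), activated by insulin, and ChREBP (Mlxipl), activated by glucose metabolites, drive these genes, and in fat ChREBP is a main driver of the pathway. Acacb is anchored at the mitochondrion, where its malonyl-CoA blocks the entry of fatty acids into oxidation.

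The counted transcripts lie on 6 chromosomes of mm10. On chromosome 11 are Acly (100476352 to 100528000, minus strand), Acaca (84195438 to 84401651, plus strand), Fasn (120805958 to 120824547, minus strand) and Srebf1 (60199084 to 60210471, minus strand, in iWAT and BAT). Chromosome 5 holds Acacb (114165518 to 114250758, plus strand) and Mlxipl (135106891 to 135138201, plus strand), and chromosome 3 holds Elovl6 (129532386 to 129638493, plus strand). Thrsp lies on chromosome 7 (97412933 to 97417550, minus strand), Me1 on chromosome 9 (86581363 to 86695914, minus strand) and Scd1 on chromosome 19 (44394450 to 44407709, minus strand).

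The promoters of Acacb, Mlxipl and Elovl6 are shown because these 3 genes had the C6KO libraries apart from the WT libraries in more than 1 depot. Each run holds the 250 bases before a transcription start, from RefSeq on GRCm38.p6, the assembly that mm10 holds, and capitals mark matches on either strand to any of CACGTG (an E-box, the core of sites bound by ChREBP and USF), CCAAT (bound by NF-Y), GGGCGG (bound by Sp1) and TCACNCCA (the core of a sterol regulatory element). Mlxipl has a pair of starts in the table. The transcript that was counted begins at the downstream start, and the other start lies 17001 bases upstream, from where the shorter and more active β form of ChREBP is transcribed.
Acacb, chr5:114165268-114165517, plus strand: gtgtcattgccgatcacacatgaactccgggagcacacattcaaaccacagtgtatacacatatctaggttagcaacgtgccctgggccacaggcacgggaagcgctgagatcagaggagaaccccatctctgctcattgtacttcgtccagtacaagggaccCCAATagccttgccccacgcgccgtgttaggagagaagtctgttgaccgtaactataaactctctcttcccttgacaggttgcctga
Mlxipl at the counted start, chr5:135106641-135106890, plus strand: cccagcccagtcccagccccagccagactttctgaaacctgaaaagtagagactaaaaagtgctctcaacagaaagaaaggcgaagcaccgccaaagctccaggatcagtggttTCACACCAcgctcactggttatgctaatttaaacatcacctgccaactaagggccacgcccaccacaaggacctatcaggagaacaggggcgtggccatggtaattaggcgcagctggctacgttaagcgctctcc
Mlxipl at the upstream start, chr5:135089640-135089889, plus strand: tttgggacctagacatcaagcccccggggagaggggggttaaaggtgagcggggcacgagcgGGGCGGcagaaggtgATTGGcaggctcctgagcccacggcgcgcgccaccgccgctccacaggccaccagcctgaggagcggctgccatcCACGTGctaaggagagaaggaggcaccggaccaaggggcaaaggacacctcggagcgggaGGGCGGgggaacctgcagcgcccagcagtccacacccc
Elovl6, chr3:129532136-129532385, plus strand: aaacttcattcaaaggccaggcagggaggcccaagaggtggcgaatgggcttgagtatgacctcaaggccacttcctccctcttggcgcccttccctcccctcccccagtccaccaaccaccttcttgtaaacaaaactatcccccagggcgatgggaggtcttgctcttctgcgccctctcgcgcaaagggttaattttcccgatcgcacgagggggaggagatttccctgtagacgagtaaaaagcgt
The upstream Mlxipl window held the E-box, which stood in 6.02% of all 32851 windows of this length in the table. The window at the counted Mlxipl start held the sterol element core, found in 3.67% of all windows. The 9 members with an entry had 13 windows, of which CCAAT stood in 7 (33.8% of all windows), those of Acacb and Fasn among them, and GGGCGG in 5 (32.7% of all windows). In Fasn, 2 of the 3 CCAAT matches overlap on opposite strands. The Elovl6 window held none of these letters. A match is a description of the sequence and was not tested for binding, and Scd1 is named only.

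The libraries held 7803108 to 19139694 counts in all, with the BAT libraries the shallowest (at most 12428683), and the 10 genes took 0.886% to 4.82% of a library's counts. Scd1 took most of that share in 17 of the 18 libraries, BAT C6KO replicate 3 being the exception (0.375% of 0.886%). For Casp6, no C6KO library reached the WT libraries of its depot, and the log2 fold changes were -1.51 (iWAT), -1.85 (eWAT) and -1.50 (BAT), at adjusted p = 0.0751, 0.0132 and 0.0671 by edgeR's quasi-likelihood test. Reads on Casp6 remained in all C6KO libraries (3.08 to 7.98 CPM). Ucp1, the uncoupling protein of brown fat, fitted the BAT label, with a mean of 6687 CPM in WT BAT, 2.15 CPM in WT iWAT and 0.581 CPM in WT eWAT. The 4 mesothelial markers summed to 92.6 to 166 CPM in WT eWAT, 0.528 to 1.83 CPM in WT iWAT and 0 to 0.529 CPM in WT BAT. The 4 epididymal epithelium markers were at 0 in every library, eWAT included, and so check no depot label. Some libraries stood apart. The 6 skeletal muscle markers summed to 25897 CPM in BAT WT replicate 2, against 33.0 to 5665 CPM in the other BAT libraries, and BAT C6KO replicate 3 held 0.886% of its counts on the 10 genes, against 2.37% to 3.27% in the other BAT libraries. Leaving iWAT C6KO replicate 3 out raised the number of genes called in iWAT from 4 to 1278. In that library 6 macrophage markers summed to 1005 CPM, against 317 and 337 CPM in the other iWAT C6KO libraries and 1347 to 1469 CPM in WT. Its 6 hepatocyte markers summed to 254 CPM, against 46.2 and 44.6 CPM in the other iWAT C6KO libraries.

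**Figure D1:**
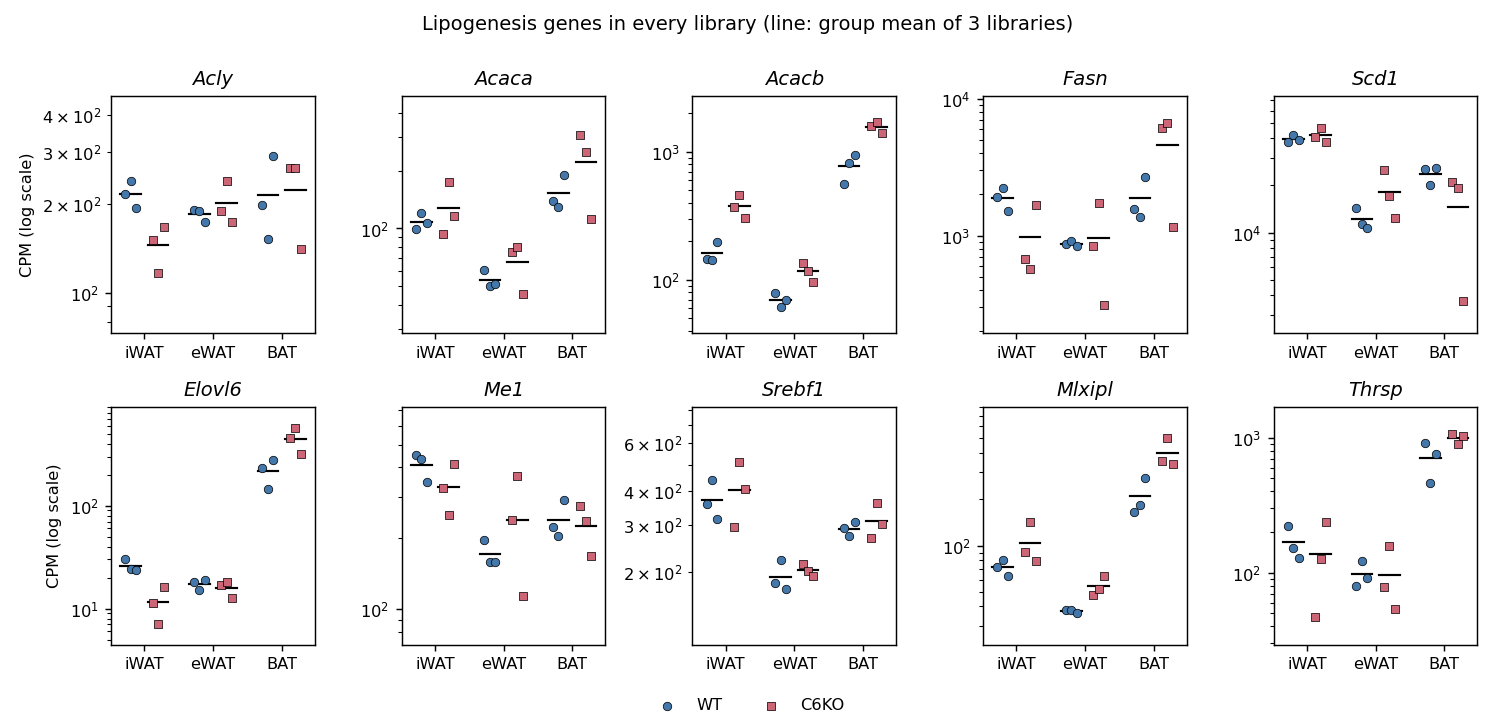
CPM (TMM-normalized counts per 1e6 counts, log axis) of the 10 lipogenesis genes in each of the 18 libraries by depot, with circles for WT, squares for C6KO and a line at the mean of 3 libraries. Acacb is higher in C6KO than in WT in all 3 depots, and in BAT the third C6KO library of Fasn (1148 CPM) and Scd1 (3649 CPM) lies far below the other 2.

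None of the 10 genes passed the test between C6KO and WT in any depot. To be called, a gene needed a fold change of at least 1.5 and an adjusted p (Benjamini-Hochberg, over all genes tested) under 0.05 in edgeR's quasi-likelihood test. This rule called 4 of 14533 genes in iWAT (0.0275%), 111 of 14889 in eWAT (0.746%) and 168 of 13595 in BAT (1.24%). The 4 genes called in iWAT, named here after their values were seen, were Rpl34-ps1, Rpl34, Adh6b and Plin5. Their log2 fold changes were -6.457, -5.045, -4.933 and 1.895. Rpl34 and Rpl34-ps1 are near-identical copies whose reads may not be told apart, and both were lower in C6KO. The cause was not tested. At an unadjusted p under 0.05 stood 4 of the 10 genes in iWAT (16.5% of all genes), 3 in eWAT (17.6%) and 3 in BAT (13.2%). DESeq2 called more: Acacb higher and Elovl6 lower in iWAT (4.72% of all genes called), Acacb higher in eWAT (3.99%), and Acacb, Elovl6 and Mlxipl higher in BAT (3.67%). These p-values measure the spread between 3 libraries a group, and in bulk tissue fewer cells of a type and less RNA per cell cannot be told apart.

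The 3 depots differed in the spread of the estimates. In iWAT the 10 log2 fold changes (C6KO over WT) ran from -1.17 to 1.24 with a median of -0.11, beside 0.03 over all genes. In eWAT they ran from -0.13 to 0.74 with a median of 0.22, beside -0.01 over all genes, and 8 of 10 were above 0. In BAT they ran from -0.70 to 1.30 with a median of 0.52, beside -0.03 over all genes, and 8 of 10 were above 0. The C6KO and WT libraries did not overlap for 3 genes in iWAT (23.2% of all genes), 2 in eWAT (23.2%) and 3 in BAT (20.2%). In iWAT these were Acacb, above WT, with Acly and Elovl6, below WT, in eWAT Acacb and Mlxipl, both above, and in BAT Acacb, Mlxipl and Elovl6, all above.

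**Figure D2:**
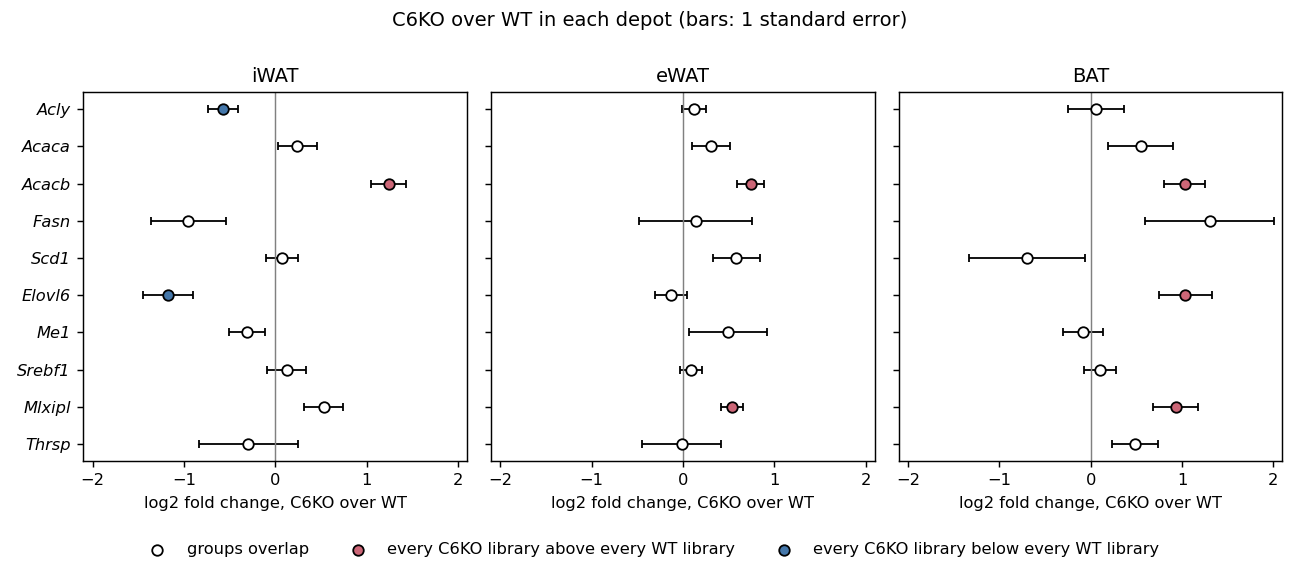
Log2 fold change of C6KO over WT for each lipogenesis gene by depot, with bars of 1 standard error and filled points where the 3 C6KO libraries do not overlap the 3 WT libraries. Acacb is above 0 in iWAT (1.24), eWAT (0.74) and BAT (1.03), while Elovl6 is below 0 in iWAT (-1.17) and above 0 in BAT (1.04).

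Acacb, the mitochondrial carboxylase, had the largest increase in estimate in iWAT and eWAT. Its C6KO libraries all lay above the WT libraries in all 3 depots, which held for 1 of the 10 genes and for 99 of the 13132 genes tested in every depot (0.754%). In iWAT it stood at 144, 143 and 196 CPM in the WT libraries and at 374, 464 and 305 CPM in the C6KO libraries, a log2 fold change of 1.24 (SE 0.20, adjusted p = 0.113 by edgeR, 1.83e-06 by DESeq2). In eWAT it stood at 78.7, 61.0 and 69.0 CPM in WT and at 136, 117 and 95.7 CPM in C6KO, a log2 fold change of 0.74 (SE 0.15, adjusted p = 0.0533 by edgeR, 0.000623 by DESeq2). In BAT it stood at 565, 812 and 939 CPM in WT and at 1594, 1724 and 1409 CPM in C6KO, a log2 fold change of 1.03 (SE 0.22, adjusted p = 0.0661 by edgeR, 0.000109 by DESeq2). Mean levels were thus 2.36-fold, 1.67-fold and 2.04-fold higher in C6KO, and edgeR's adjusted p missed the threshold each time in the main fit. Without a filter on low counts, edgeR did call Acacb in all 3 depots (log2 fold change 1.24, 0.74 and 1.06). The gene was also called by edgeR with all 18 libraries in 1 fit in iWAT and BAT. With the replicate block it was called in eWAT, but that block joins WT and C6KO libraries of the same number, which come from different mice. Over the alternatives the adjusted p ran from 1.83e-06 to 0.473 in iWAT, from 0.000623 to 0.21 in eWAT and from 0.000109 to 0.289 in BAT. The cytosolic carboxylase Acaca, which makes the malonyl-CoA that Fasn uses, had overlapping groups in every depot, and its log2 fold change was 0.24 (SE 0.21) in iWAT, 0.31 (SE 0.21) in eWAT and 0.55 (SE 0.36) in BAT. Its highest levels were in BAT C6KO, at 308, 250 and 112 CPM against 139, 130 and 189 CPM in WT, where the third C6KO library was the lowest of all 6. Without that library the estimate for Acaca in BAT was 0.87 (adjusted p = 0.205 by edgeR).

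Mlxipl, the gene of ChREBP, was above WT in estimate in all 3 depots. In iWAT its CPM values of 72.7, 80.1 and 63.3 in WT overlapped those of 90.6, 142 and 79.7 in C6KO, with a log2 fold change of 0.53 (SE 0.21, adjusted p = 0.272 by edgeR). In eWAT the groups did not overlap, at 37.8, 38.2 and 36.2 CPM in WT and 47.7, 51.9 and 63.0 CPM in C6KO, with a log2 fold change of 0.54 (SE 0.12, adjusted p = 0.0655). In BAT they did not overlap either, at 166, 185 and 278 CPM in WT and 355, 502 and 340 CPM in C6KO, with a log2 fold change of 0.93 (SE 0.25, adjusted p = 0.124). Without BAT WT replicate 2, the library with the most muscle marker counts, the BAT estimates were 0.85 for Mlxipl (adjusted p = 0.195), 1.07 for Acacb (0.0637) and 0.82 for Elovl6 (0.181). The counts do not separate the α and β forms of ChREBP, because each gene was reduced to 1 transcript. Srebf1, the gene of SREBP-1, had nearly equal means in the genotypes, and its groups overlapped in each depot (log2 fold change 0.12, SE 0.22 in iWAT, 0.08, SE 0.12 in eWAT, and 0.10, SE 0.17 in BAT). Thrsp, also called Spot 14, encodes a small protein that goes with the induction of lipogenesis. It ranged from 46.9 to 236 CPM in iWAT C6KO against 128 to 222 CPM in WT, and from 53.7 to 158 CPM in eWAT C6KO against 79.2 to 123 CPM in WT. In BAT it ranged from 905 to 1062 CPM in C6KO and from 465 to 918 CPM in WT, so that only the lowest C6KO library reached into the WT range (log2 fold change 0.49, SE 0.25, adjusted p = 0.443 by edgeR).

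Acly, which supplies acetyl-CoA, had all 3 C6KO libraries below WT in iWAT, at 152, 117 and 168 CPM against 216.5, 239 and 194 CPM (log2 fold change -0.57, SE 0.16, adjusted p = 0.168 by edgeR). In eWAT and BAT its groups overlapped, with log2 fold changes of 0.12 (SE 0.13) and 0.06 (SE 0.31). Fasn varied widely between the libraries of a group. In iWAT it stood at 1924, 2226 and 1516 CPM in WT and at 672, 571 and 1686 CPM in C6KO, where the first 2 C6KO libraries lay below all WT libraries and the third among them (log2 fold change -0.95, SE 0.41, adjusted p = 0.312). In eWAT the WT libraries were close together, at 867, 910 and 833 CPM, while the C6KO libraries stood at 833, 1730 and 308 CPM (log2 fold change 0.14, SE 0.62). In BAT it stood at 1565, 1371 and 2688 CPM in WT and at 6132, 6614 and 1148 CPM in C6KO, where 2 C6KO libraries were above all WT libraries and the third below them (log2 fold change 1.30, SE 0.71, adjusted p = 0.516). Without the third C6KO library, the Fasn estimate in BAT was 1.77 (adjusted p = 0.0935). Without iWAT C6KO replicate 3, Fasn reached -1.63 in iWAT with adjusted p = 0.00201, and Acly (-0.71, 0.0289), Elovl6 (-1.51, 0.00594) and Acacb (1.36, 0.00252) were called too, in a fit that called 8.64% of all genes.

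Me1, which makes NADPH from malate, had overlapping groups in every depot. Its log2 fold changes were -0.32 (SE 0.20) in iWAT, 0.49 (SE 0.43) in eWAT and -0.08 (SE 0.22) in BAT. The C6KO libraries of eWAT spread the most, from 114 to 370 CPM, against 159 to 197 CPM in WT.

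Scd1 was the most abundant of the 10 genes in every depot. In iWAT it stood at 37928, 41909 and 39101 CPM in WT and at 40518, 46687 and 37842 CPM in C6KO (log2 fold change 0.07, SE 0.17). In eWAT it stood at 14276, 11426 and 10673 CPM in WT and at 25043, 17219 and 12318 CPM in C6KO (log2 fold change 0.59, SE 0.25, adjusted p = 0.271 by edgeR), and only the third C6KO library lay within the WT range. In BAT it stood at 25435, 19996 and 25910 CPM in WT and at 21049, 19232 and 3649 CPM in C6KO (log2 fold change -0.70, SE 0.64), and without C6KO replicate 3 the estimate was -0.24. The low mean of Scd1 in BAT C6KO thus came mainly from 1 library, in which Fasn and Acaca also had their lowest value of the 6.

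Elovl6, the elongase that acts before Scd1, had estimates of opposite sign in iWAT and BAT. In iWAT it stood at 30.6, 24.1 and 23.7 CPM in WT and at 11.4, 7.16 and 16.1 CPM in C6KO, all below WT (log2 fold change -1.17, SE 0.27, adjusted p = 0.154 by edgeR, 0.00392 by DESeq2). In eWAT it stood at 18.1, 15.2 and 19.0 CPM in WT and at 17.1, 18.03 and 12.6 CPM in C6KO (log2 fold change -0.13, SE 0.17). In BAT it stood at 230.4, 145 and 279 CPM in WT and at 458, 569.9 and 315 CPM in C6KO, all above WT (log2 fold change 1.04, SE 0.29, adjusted p = 0.142 by edgeR, 0.00925 by DESeq2). The C6KO effect in BAT exceeded that in iWAT by 2.19 on the log2 scale (SE 0.41, adjusted p = 0.0396), a difference tested as an interaction in 1 edgeR fit that took all 18 libraries as independent. Of 15866 genes, 29 (0.183%) passed this test, and Elovl6 was the only one of the 10 lipogenesis genes among them. The adjusted p ran from 5.68e-05 with DESeq2 to 0.12 over the alternatives, and when each library was left out in turn, 4 of 18 fits still called the gene, those without replicate 3 of iWAT C6KO, eWAT C6KO, BAT WT or BAT C6KO. With a replicate block the call was lost (difference 2.21, adjusted p = 0.0881 by edgeR). Fasn had a difference of similar size (2.24) with a wider error (SE 0.91, adjusted p = 0.429). Between eWAT and iWAT the interaction called 0 of 15866 genes (0.0%), and DESeq2 called none of the 10 genes and 14 genes in all. Between BAT and eWAT it called 0.536% of genes and none of the 10, and DESeq2 called none of the 10 and 341 genes in all. Elovl6 lies on chromosome 3 at 0.263 Mb from Casp6 (129901415 to 129914112, mm10). Whether this neighbourhood plays a part in the Elovl6 values was not tested.

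Markers of several cell types moved with genotype beside the lipogenesis genes. The 6 adipocyte markers (Adipoq, Plin1, Cidec, Lipe, Fabp4 and Retn) summed to 20870 to 23763 CPM in WT iWAT and 29077 to 30430 CPM in C6KO iWAT. In eWAT they summed to 8821 to 10385 CPM in WT and 12257 to 15580 CPM in C6KO, and in BAT to 13620 to 21676 CPM in WT and 15683 to 18085 CPM in C6KO. All 6 had every C6KO library above every WT library in iWAT, 5 of 6 in eWAT and 1 of 6 in BAT. Over all genes, 23.2%, 23.2% and 20.2% did not overlap in either direction. Of the 6, edgeR called 2 in eWAT (Plin1 and Lipe), where it called 0.746% of all genes. The 6 macrophage markers (Adgre1, Cd68, Csf1r, Lyz2, Itgam and Ptprc) all lay below WT in every C6KO library of every depot, with median log2 fold changes of -1.44, -0.56 and -1.60, and 3 of them were called in BAT (1.24% of all genes). The 6 hepatocyte markers summed to 46.2, 44.6 and 254 CPM in C6KO iWAT against 17.8, 11.7 and 51.6 CPM in WT, so that the groups overlapped. In eWAT they summed to 27.5 to 80.7 CPM in C6KO against 6.17 to 12.2 CPM in WT. The 4 endothelial markers summed to 699.9 to 833 CPM in C6KO eWAT against 493 to 562 CPM in WT. In BAT they summed to 1014 to 1044 CPM in C6KO against 726 to 911 CPM in WT, and in iWAT the groups overlapped. The part of any of these cells in the lipogenesis results was not tested.

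Each gene was also set against the adipocyte markers of the same library, as the difference of its log2 CPM from their mean. The markers summed higher in C6KO than in WT in both white depots, and many genes of any kind lay below WT there on this measure. In iWAT 5 of the 10 genes (Acly, Fasn, Scd1, Elovl6 and Me1) had every C6KO library below every WT library, and so had 49.4% of all genes. Acacb was 0.82 higher in C6KO iWAT on this scale with no overlap, as in 0.702% of all genes. In eWAT 3 of the 10 genes (Acly, Elovl6 and Srebf1) had every C6KO library below WT, and so had 69.3% of all genes, while the genotype difference was 0.07 for Acacb and -0.14 for Mlxipl, both with overlap. In BAT Acacb (0.94) and Mlxipl (0.83) had every C6KO library above WT, as in 3.21% of all genes, none of the 10 lay below, and the C6KO and WT libraries of Elovl6 overlapped (0.93). This measure was chosen after the data were seen and carries no test, and the part of adipocyte content in the results was not tested beyond it.

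**Figure D3:**
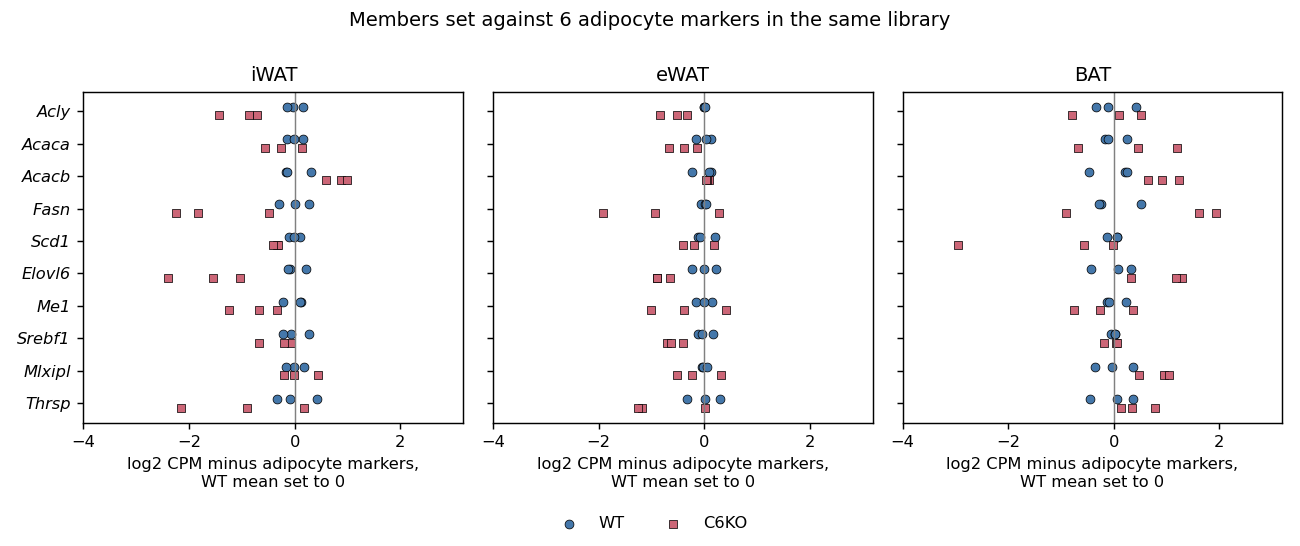
Log2 CPM of each lipogenesis gene minus the mean log2 CPM of 6 adipocyte markers in the same library, with the WT mean of the depot set to 0, circles for WT and squares for C6KO. In iWAT 5 genes have all C6KO libraries below WT (49.4% of all genes) and 1 (Acacb) above, in eWAT 3 lie below (69.3% of all genes), and in BAT 2 (Acacb and Mlxipl) lie above.

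In WT mice the levels of the 10 genes per length spread widely. In CPM per kb of exon, Scd1 led in all 3 depots, with 8829 ± 488 (SD, n = 3) in iWAT, 2444 ± 403 in eWAT and 5754 ± 911 in BAT. Elovl6 was the lowest in iWAT (4.72 ± 0.692) and eWAT (2.86 ± 0.329), and Acaca in BAT (19.9 ± 4.27). Thrsp was the second highest in eWAT and BAT, at 86.3 ± 19.5 and 762 ± 262, but its range in eWAT (70.8 to 108) enclosed that of Fasn (81.6 to 88.9). Acacb rose in rank from the eighth in the white depots to the fourth in BAT, where it reached 107 ± 25.2 against 20.6 ± 3.84 in iWAT and 8.03 ± 1.09 in eWAT. Acacb was above Acaca per length by 1.58-fold in iWAT and 1.37-fold in eWAT, and by 5.36-fold in BAT. Neighbours in the order often overlapped: in iWAT Fasn (164 to 243), Thrsp (125 to 217) and Me1 (115 to 149.6) did, each with the next, and so did in BAT Me1 (71.6 to 105), Srebf1 (72.1 to 84.1), Mlxipl (56.6 to 92.7), Acly (39.4 to 77.6) and Elovl6 (27.8 to 54.9).

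**Figure D4:**
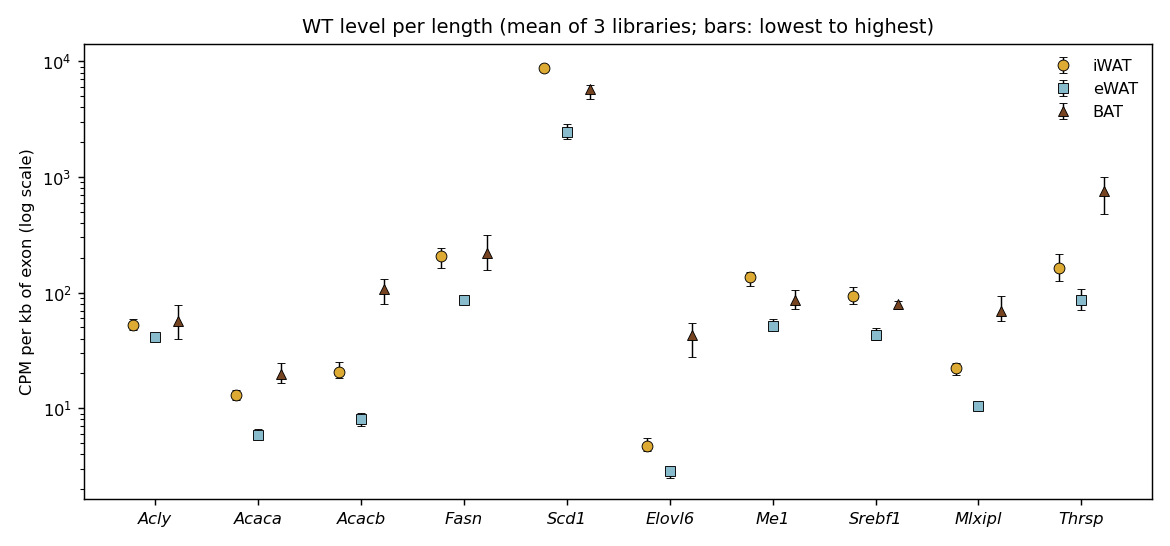
Mean CPM per kb of exon (log axis) of each lipogenesis gene in WT iWAT, eWAT and BAT, with bars from the lowest to the highest of 3 libraries. Acacb, Elovl6, Mlxipl and Thrsp stand highest in BAT, and all 10 means are lowest in eWAT, where Srebf1 was counted on another transcript.

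The order of the depots was tested for the 9 genes counted on the same transcript in all 3 tables, in 1 edgeR fit of all 18 libraries. WT eWAT was below WT iWAT for 5 genes (12.9% of all genes called lower): Scd1 by a log2 difference of -1.85 (SE 0.43), Me1 by -1.41 (SE 0.32), Acacb by -1.36 (SE 0.21), Acaca by -1.15 (SE 0.32) and Mlxipl by -1.09 (SE 0.22), with adjusted p from 0.000129 to 0.0113. The other 4 (Fasn, Thrsp, Elovl6 and Acly) had negative estimates that did not pass by edgeR, while DESeq2 called Elovl6 lower too (adjusted p = 0.0461). The 6 adipocyte markers also summed lower in WT eWAT (8821 to 10385 CPM) than in WT iWAT (20870 to 23763 CPM). On the log2 scale against these markers, the WT mean of Scd1 was lower in eWAT (3.90 against 4.06). Those of Me1 (-2.24 against -2.54), Acacb (-3.54 against -3.90), Acaca (-3.90 against -4.46) and Mlxipl (-4.43 against -5.05) were higher there. The part of adipocyte content in the depot differences was not tested. WT BAT was above WT iWAT for 4 genes (20.0% of all genes called higher): Elovl6 by 3.19 (SE 0.30), Acacb by 2.37 (SE 0.21), Thrsp by 2.21 (SE 0.50) and Mlxipl by 1.65 (SE 0.22), with adjusted p from 1.42e-07 to 0.00232. Acly (0.11), Fasn (0.11), Acaca (0.61), Scd1 (-0.62) and Me1 (-0.66) did not pass between BAT and iWAT, and Acly and Fasn turned sign when only total counts were used for scaling (-0.02 each). WT BAT was above WT eWAT for 6 genes (24.9% of all genes called higher), the same 4 at 2.75 to 3.91 with Acaca at 1.76 (SE 0.32) and Scd1 at 1.24 (SE 0.42). DESeq2 also called Fasn (adjusted p = 0.0492) and Me1 (0.0422) higher in BAT than in eWAT. The call for Scd1 was lost with total counts as the only scaling (0.96) and without any of eWAT WT replicates 2 and 3 or BAT WT replicates 1 and 3 (1.12 to 1.19). Scaling by total counts moved the median of all genes to 0.15, -0.12 and -0.25 in these 3 comparisons, and the called differences stayed larger than these shifts. Srebf1 was counted on another transcript in eWAT (NM_011480) than in iWAT and BAT (NM_001358314). Between BAT and iWAT, which share the transcript, its log2 difference was -0.24 (adjusted p = 0.306).

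Within a group the genes did not vary independently. Each library was compared with the mean of its own group of 3, so that neither depot nor genotype enters. In eWAT, C6KO replicate 3 was the lowest of its group for 9 of the 10 genes, against 31.6% of all genes, and Mlxipl was the exception, with its highest value there. In BAT, C6KO replicate 3 was the lowest for 8 genes (34.4% of all genes), with Fasn and Scd1 at 1.63 below the group mean on the log2 scale. Among the WT libraries of BAT, replicate 3 was the highest for 9 genes (26.0% of all genes) and replicate 2, the library with the most muscle marker counts, the lowest for 8 (35.5%). In iWAT C6KO the genes split, with Fasn (0.97), Thrsp (1.09) and Elovl6 (0.56) high in replicate 3 and Acacb (-0.29) and Mlxipl (-0.33) low.

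**Figure D5:**
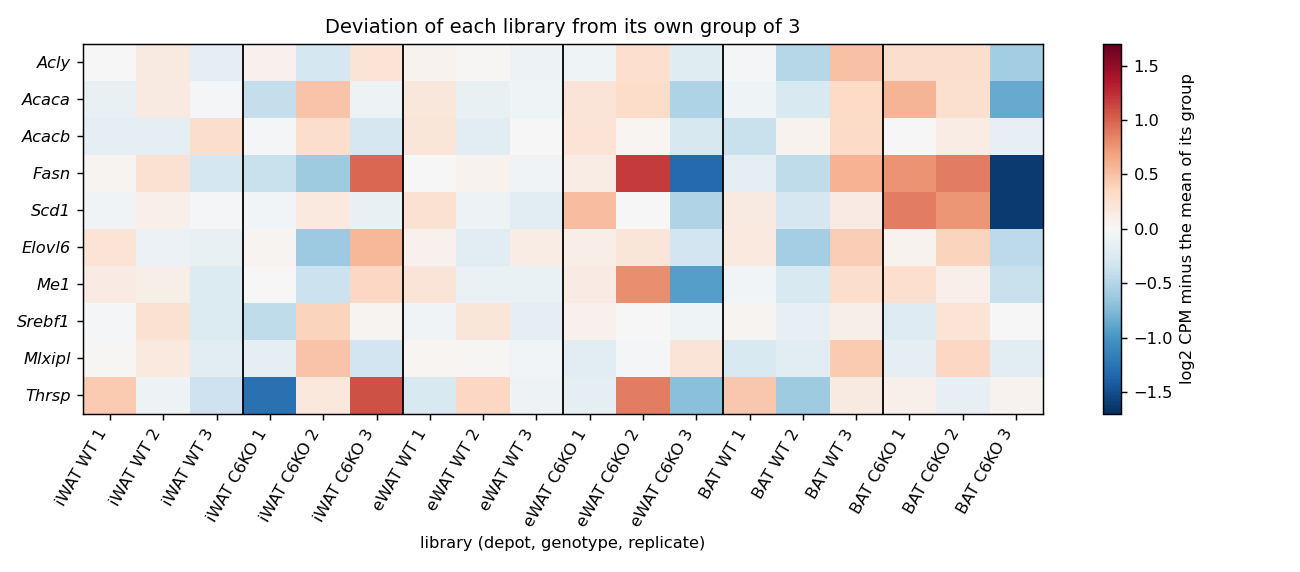
Log2 CPM of each lipogenesis gene in each library minus the mean of its group of 3 libraries, from blue (below) to red (above), with lines between groups. Fasn and Scd1 are 1.63 below their group mean in BAT C6KO 3, and Fasn is 1.32 below it in eWAT C6KO 3.

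Over the 18 libraries, centred in this way, Fasn followed the mean of the other 9 genes most closely (Pearson r = 0.90), then Acly (0.82), Acaca (0.81) and Me1 (0.77). Scd1 (0.66) and Elovl6 (0.65) came next, followed by Thrsp (0.40) and Srebf1 (0.30). Acacb (0.20) and Mlxipl (0.16), the 2 genes above WT in estimate in all depots without an overlap in at least 2 of them, followed it least. The 5 genes outside the list whose centred pattern was most like the mean of the 10, among 10657 compared, were Tkt (r = 0.89, Spearman's rho = 0.81), Ccdc3 (0.88 and 0.87), Insig1 (0.87 and 0.83), Echdc1 (0.86 and 0.87) and Rnf146 (0.86 and 0.82). Tkt, transketolase, belongs to the pentose phosphate pathway, and Insig1 holds SREBP in the endoplasmic reticulum. These correlations describe libraries that share their depth and tissue composition, and no test is given for them.

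Other genes around the pathway showed no call by edgeR in any depot in the main fits. Without iWAT C6KO replicate 3, the fit that called 8.64% of all genes called 8 of them in iWAT: Slc25a1 (-0.87), Acss2 (-1.44), Dlat (-0.63) and Idh1 (-0.86) of the carbon and NADPH genes, Scd2 (-2.47) and Fads1 (0.70) of elongation and desaturation, and the regulators Insig1 (-0.96) and Mlycd (0.61), named after their values were seen. Of 17 genes that supply carbon or NADPH, 0 were called, and their median log2 fold changes were -0.14, 0.15 and 0.04. At an unadjusted p under 0.05 were 1, 4 and 0 in iWAT, eWAT and BAT, beside 16.5%, 17.6% and 13.2% of all genes. The 3 most abundant were Cs (citrate synthase), Pdha1 (pyruvate dehydrogenase) and Pcx (pyruvate carboxylase), and Pcx had 453 ± 37.8 CPM in WT eWAT and 657 ± 175 CPM in C6KO eWAT (SD, n = 3; log2 fold change 0.54, adjusted p = 0.187 by edgeR). In iWAT 13 of these 17 genes had an estimate below 0, and in eWAT 15 of 17 had one above 0. DESeq2 called 1 of them, Slc2a4, the insulin-responsive glucose transporter, in eWAT, where it called 3.99% of all genes. Its log2 fold change was 0.71 (adjusted p = 0.00396 by DESeq2 and 0.0655 by edgeR), and it is named after its value was seen. EdgeR called Slc2a4 without a filter, with a replicate block or without C6KO replicate 1.

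Of 13 genes of elongation and desaturation, 12, 12 and 11 were tested in the 3 depots and 0 were called, with medians of -0.15, 0.19 and -0.09. At an unadjusted p under 0.05 was 1 in each, beside 16.5%, 17.6% and 13.2% of all genes. The most abundant were Hsd17b12, Scd2 and Hacd2. Scd2, a second stearoyl-CoA desaturase, averaged 521 ± 109 CPM in WT iWAT and 197 ± 177 CPM in C6KO iWAT (SD, n = 3; log2 fold change -1.41, SE 0.61, adjusted p = 0.318 by edgeR), with every C6KO library below every WT library. DESeq2 called 1 of these genes in BAT, where it called 3.67% of all genes. This was Elovl3, an elongase of very long chains that is typical of brown fat, also named after its value was seen. It stood at 66.3 ± 30.1 CPM in WT and 238 ± 60.1 CPM in C6KO (log2 fold change 1.84, adjusted p = 6.85e-06 by DESeq2 and 0.0941 by edgeR, or 0.0183 by edgeR without BAT WT replicate 2). Of 19 regulators, 0 were called by edgeR and 0 by DESeq2, with medians of 0.11, 0.01 and 0.06. At an unadjusted p under 0.05 were 2, 4 and 3, beside the same shares of all genes (16.5%, 17.6% and 13.2%). Insig1, Rxra and Thra were the most abundant of these, and Insig1 had log2 fold changes of -0.59 (SE 0.26) in iWAT, 0.21 (SE 0.45) in eWAT and 0.90 (SE 0.50) in BAT, none of which passed.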

How the data were processed

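Poly(A) RNA of 18 libraries (3 per depot and genotype) was sequenced on an Illumina NextSeq. The authors mapped them to mm10 (STAR), counted exonic reads per gene (HOMER, 1 transcript kept per gene) and deposited raw counts without normalization, 1 table of 25124 genes per depot. Strandedness, annotation and versions are not given in the sources used here. The transcript kept differed between tables for 2619 genes, Srebf1 among them, and these were left out of the comparisons between depots.

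From the counts, edgeR 4.0.16 (limma 3.58.1, R 4.3.3) was run per depot on 3 C6KO against 3 WT libraries, with filterByExpr, TMM, a robust quasi-likelihood fit and Benjamini-Hochberg adjustment. Depots and interactions were tested in 1 fit of all 18 libraries (14175 and 15866 genes). Log2 CPM used a prior count of 1, and CPM per kb the exon length of the kept transcript. Alternatives were DESeq2 1.42.0, edgeR scaled by DESeq2's size factors or by total counts alone, no filter, at least 10 counts in every library, no fold change minimum, all 18 libraries in 1 fit, a replicate block, and each library left out in turn. Within a depot the block joined the WT and C6KO libraries of the same number, which come from different mice. In the fits of all 18 libraries it joined the same number across the depots of a genotype. On simulated data with a log2 fold change of 2, edgeR recovered 97%, 98.5% and 97% of 200 changed genes in iWAT, eWAT and BAT (14433, 14832 and 13568 genes tested), with 3.96%, 5.29% and 8.06% of calls false, against 7.18%, 11.36% and 11.47% for DESeq2. That log2 fold change is larger than any genotype estimate for the 10 genes. In the simulation every gene had the same dispersion and no library stood apart. These shares thus do not give the power or error of either tool in these data.

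The named genes are the 10 members, Casp6, the genes of each list that were called or were among the 3 with the highest mean CPM, and the 5 genes of at least 5 CPM with the most similar centred pattern. The members and lists were chosen with earlier results of these data known. Same-numbered libraries did not all vary together, so that the main fits did not use the numbers as pairs. The mean correlation of their deviations was 0.046, 0.066 and -0.263 between WT and C6KO of iWAT, eWAT and BAT. Between depots of a genotype it was -0.002 to 0.118, where WT iWAT and eWAT ran from 0.044 to 0.219 by pair. No pair of replicates agreed within counting noise. Promoter sequences came from RefSeq (GRCm38.p6), where 9 of the 10 genes matched. Figures were drawn with matplotlib.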

Additional observations from a re-analysis of the deposited data

Results flagged for a closer look

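The C6KO effect on Elovl6 differed between BAT and iWAT in the main test, which took all 18 libraries as independent. It was 2.19 higher on the log2 scale in BAT than in iWAT (SE 0.41, adjusted p = 0.0396 by edgeR's quasi-likelihood test of the interaction, 5.68e-05 by DESeq2), with 3 of 3 C6KO libraries above every WT library in BAT and 3 of 3 below in iWAT. Without 1 library at a time the difference ran from 1.94 to 2.52 and its adjusted p from 0.00759 to 0.12, and 4 of 18 such fits kept the call. With the replicate block the call was lost (difference 2.21, adjusted p = 0.0881 by edgeR).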

How the results depend on the processing

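The count of genes called in C6KO against WT moved with the tool. In iWAT it was 674 with DESeq2, 32 without a filter, 2 with at least 10 counts in every library, 62 with the replicate block and 366 with all 18 libraries in 1 fit, against 4. In eWAT it was 618, 321 and 414 with DESeq2, no filter and the block, 67 with total counts as the only scaling and 4 with all 18 libraries, against 111. In BAT it was 545 with DESeq2 and 525 with all 18 libraries, against 168. Leaving out 1 library gave 3 to 1278, 2 to 347 and 28 to 178 genes. In iWAT, 1 lipogenesis gene (Acacb) was called higher and 1 (Elovl6) lower with DESeq2 and with all 18 libraries, 1 (Acacb) higher without a filter, and 0 to 1 higher and 0 to 3 lower without 1 library. In eWAT 1 (Acacb) was called higher with DESeq2, no filter or the block. In BAT 3 were called higher with DESeq2 (Acacb, Elovl6 and Mlxipl), 1 without a filter (Acacb) and 2 with all 18 libraries (Acacb and Mlxipl). Between BAT and iWAT in WT, 1 gene was called lower with total counts, and 0 to 1 without 1 library. For the interactions, DESeq2 called 14, 164 and 341 genes (eWAT and BAT against iWAT, BAT against eWAT), leaving out 1 library gave 0 to 241, 14 to 112 and 22 to 196, and the Elovl6 call in BAT against iWAT was lost with the block (difference 2.21, adjusted p = 0.0881; 0 genes; 0 to 1 without 1 library).

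Estimates near 0 changed sign, none of them called. With the replicate block, Fasn in eWAT was -0.18 and the Srebf1 interaction of BAT against eWAT -0.031. With total counts, Acly and Fasn in WT BAT against iWAT were -0.023 and -0.019. The Mlxipl interaction of eWAT against iWAT was -0.019 with DESeq2 and with its size factors and -0.002 with at least 10 counts. The Srebf1 interaction of BAT against iWAT was 0.015 with total counts and with at least 10 counts, and that of BAT against eWAT -0.003 without a filter. Leaving out 1 library gave, in iWAT, -0.97 to 0.12 for Thrsp, -0.049 to 0.42 for Acaca, -0.016 to 0.12 for Scd1 and -0.082 to 0.31 for Srebf1. In eWAT it gave -0.56 to 0.27 for Thrsp, -0.014 to 0.22 for Acly, -0.60 to 0.56 for Fasn and -0.22 to 0.012 for Elovl6. In BAT it gave -0.13 to 0.39 for Acly, -0.21 to 0.12 for Me1 and -0.002 to 0.23 for Srebf1. Between BAT and iWAT in WT it gave -0.28 to 0.30 for Fasn and -0.21 to 0.31 for Acly. For the interactions it gave, in eWAT against iWAT, -0.15 to 0.30 for Mlxipl, -0.22 to 0.17 for Srebf1, -0.11 to 0.36 for Acaca and -0.28 to 0.94 for Thrsp. In BAT against iWAT it gave -0.22 to 0.17 for Srebf1, and in BAT against eWAT -0.12 to 0.11 for Srebf1, -0.29 to 0.21 for Acly and -0.073 to 0.54 for Acaca. The cause was not tested. BAT libraries were the shallowest, which limits low genes such as Casp6 there (26 to 145 counts).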
